A study of Mus musculus with 8 samples.

Results

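The FXR, SHP and LRH-1 axis of the liver was described through 6 regulator genes: Nr1h4 (FXR), Nr0b2 (SHP), Nr5a2 (LRH-1), Hnf4a, Mafg and Rxra. They were chosen by name for their known roles, with earlier results of these data known. The 6 symbols were matched to 6 of the 55401 gene identifiers in the deposited count table, and all 6 passed the filter on low counts. Liver RNA came from NOD scid gamma (NSG) mice, an immunodeficient strain, that carried a tumour of human colorectal cancer cells under the skin. The hosts of Colo201, the line that the series gives as high in the hormone FGF19, contributed 4 libraries (2L, 2R, 4L and 4R), and the hosts of HCT116, the line given as low in FGF19, contributed another 4 (1L, 1R, 3L and 3R). In each line 2 libraries were labelled male (numbers 2 and 1) and 2 female (numbers 4 and 3). All hosts bore a tumour, and neither line had a version with altered FGF19, so FGF19 and other differences between the 2 lines cannot be told apart; the age of the mice is not given in the sources used here.

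FXR is the nuclear receptor that bile acids activate, and it binds DNA mostly as a heterodimer with RXR. In hepatocytes it induces SHP, a receptor that lacks a DNA-binding domain and represses other receptors, LRH-1 and HNF4A among them, at the genes of bile acid synthesis such as Cyp7a1. FXR also induces the small MAF protein MAFG, a repressor of several of these genes, while FXR in the intestine induces FGF19 (Fgf15 in the mouse), which signals to the liver through FGFR4 and its co-receptor beta-Klotho.

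The libraries held 61347603 to 65457482 estimated counts. Levels are given below as CPM, counts divided by the size of the library, here scaled by TMM, and differences as log2 fold changes of Colo201 over HCT116 hosts from edgeR's quasi-likelihood test with sex label as a covariate, with Benjamini-Hochberg adjustment over 17669 genes and a threshold of 0.05. The sex label went against the sex-linked genes in all 8 libraries: with the male label Xist stood at 253 to 366 CPM and Ddx3y at 0, and with the female label at 0.276 to 0.805 and 37.6 to 63.5 CPM, so sex is written as labelled throughout. Nothing in the labels tells whether the L and R libraries that share a number came from 1 animal or from different ones, so the p-values rest on the spread from library to library, and that spread may be technical. The hepatocyte markers were abundant in every library, at a summed 108709 to 163637 CPM over 8 genes. In this bulk tissue, fewer cells of a type and less RNA per cell cannot be told apart.

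Of the 6 regulators, Nr1h4 was lower in the hosts of Colo201 and passed the test, and the other 5 did not pass. Thus 0 of 6 were called higher, where 2.48% of all tested genes were, and 1 of 6 was called lower, where 2.3% were; the share called in either direction was 4.78%. At an unadjusted p under 0.05, edgeR found 0 higher and 2 lower, where 3834 of all 17669 tested genes were found in either direction. DESeq2 called 0 higher and 2 lower (Nr1h4 and Mafg), among 1993 genes that it called in all. With limma voom 0 were called higher and 1 lower (Nr1h4). The 2 lines did not overlap for 3 of 6 regulators, Nr1h4, Hnf4a and Mafg, each lower in Colo201, beside 12.3% of all tested genes that did not overlap in either direction. The median log2 fold change over the 6 was -0.10, beside 0.0021 over all tested genes. A regulator that did not pass is not thereby shown to be alike in the 2 lines.

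**Figure D1:**
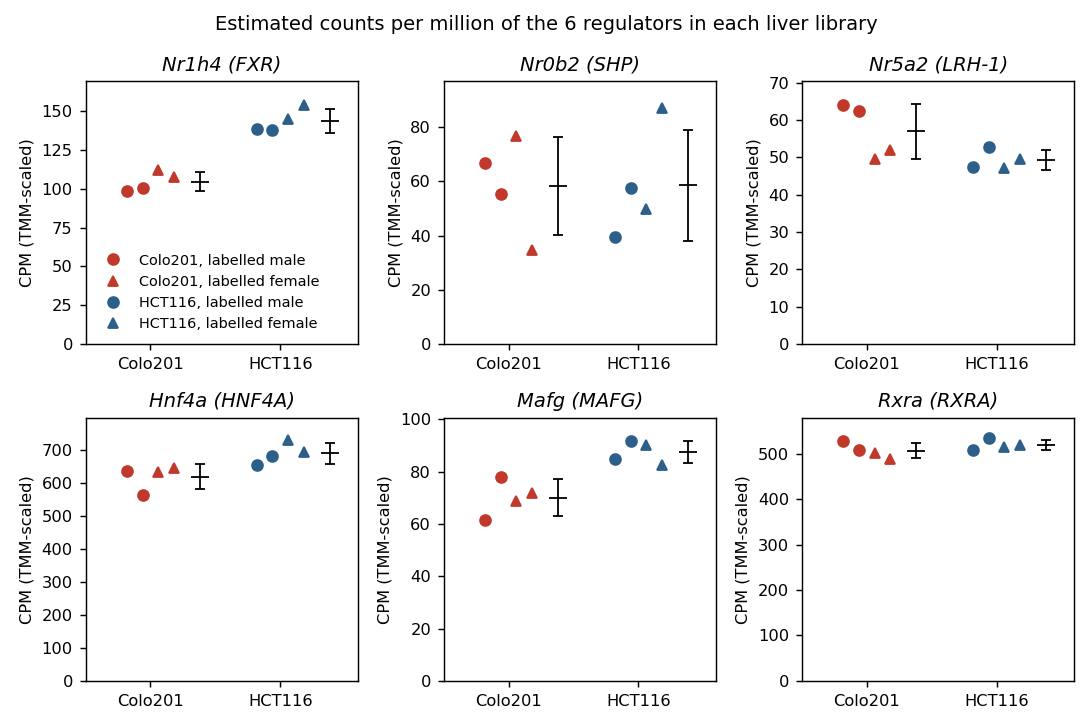
TMM-scaled CPM (y axis) of each of the 6 regulators in the 4 Colo201 and 4 HCT116 host libraries (x axis), with circles for libraries labelled male and triangles for those labelled female; the bar beside each line is the mean with 1 SD. Nr1h4, Hnf4a and Mafg do not overlap between the lines, while Nr0b2 spans 34.5 to 87.1 CPM with both extremes in libraries labelled female.

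The receptor FXR was described first. Its gene Nr1h4 (ENSMUSG00000047638) lies on the minus strand of chromosome 10 from 89454234 to 89533585 in GRCm38. The promoter sequence of RefSeq (GRCm38.p6) is shown because Nr1h4 was the regulator that passed; it covers the 250 bases before the RefSeq start, chr10:89506659-89506908 on the minus strand, and that start lies inside the GENCODE gene span. Capitals mark the nuclear receptor half-site AGGTCA, which lies on the reverse strand of the printed run, at -214 to -209 counted from the start.
Nr1h4: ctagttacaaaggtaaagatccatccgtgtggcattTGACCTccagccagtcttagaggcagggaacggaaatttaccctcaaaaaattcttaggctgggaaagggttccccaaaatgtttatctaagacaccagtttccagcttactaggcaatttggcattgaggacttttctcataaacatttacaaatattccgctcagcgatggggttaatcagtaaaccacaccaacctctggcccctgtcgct
The half-site was found on either strand in 14.0% of 32851 promoters of the same length, so this match is a description only.

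Nr1h4 stood at 98.8, 100.1, 112.0 and 107.4 CPM in Colo201 2L, 2R, 4L and 4R. In HCT116 1L, 1R, 3L and 3R it stood at 138.1, 137.5, 145.1 and 153.9 CPM. Every Colo201 library was below every HCT116 library, and within each line both libraries labelled female were above both labelled male. The mean was 104.6 ± 6.19 CPM (SD, n = 4) against 143.6 ± 7.66 CPM (SD, n = 4), that is 27.2% lower. Nr1h4 fell by 0.46 in log2 units (SE 0.07, adjusted p = 0.0131 by edgeR) and ranked 144 of 17669 genes by p-value. Across 21 alternative settings its log2 fold change lay between -0.50 and -0.44. It passed in 18 of them, with an adjusted p of 0.051 without HCT116 1R, 0.051 without the covariate and 0.139 with L and R of each number summed.

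The size of the Nr1h4 difference was close in both sex labels. Among libraries labelled male the mean was 99.5 CPM in Colo201 and 138 CPM in HCT116 hosts, a log2 ratio of -0.47 (SE 0.10, adjusted p = 0.152 by edgeR). Among those labelled female it was 110 against 149 CPM, a log2 ratio of -0.45 (SE 0.10, adjusted p = 0.133 by edgeR). DESeq2 called both, with adjusted p-values of 0.00807 and 0.0126. Within a sex label each line has only the L and R libraries of a single number. These tests therefore rest on the spread between L and R, and the labels may not be separate repeats of the line difference. The difference between the 2 log2 fold changes, female minus male, was 0.02 (SE 0.15).

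RXRA is the partner with which FXR, the LXRs, PPARs, PXR and CAR bind DNA. Its gene Rxra (ENSMUSG00000015846, chromosome 2, 27676440 to 27762957, plus strand) was the steadiest of the 6. It stood at 528.6, 507.5, 501.3 and 489.2 CPM in Colo201 2L, 2R, 4L and 4R. HCT116 1L, 1R, 3L and 3R had 508.6, 534.0, 515.7 and 518.8 CPM. The lines overlapped, and the highest of the 8 libraries was only 1.09 times the lowest. The means were 506.6 ± 16.5 and 519.3 ± 10.7 CPM (SD, n = 4 each), and Rxra did not pass, with a log2 ratio of -0.04 (SE 0.07, adjusted p = 0.799 by edgeR). Of 12735 genes with at least 1 CPM on average, 0.0864% had a smaller within-line SD of log2 CPM than Rxra, at 0.04, where the median gene had 0.23.

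SHP is the induced repressor of the axis. Its gene Nr0b2 (ENSMUSG00000037583, chromosome 4, 133553376 to 133556536, plus strand) is a known target of LRH-1 as well as of FXR. The 250 bases before its RefSeq start, chr4:133553126-133553375 on the plus strand (GRCm38.p6), are shown for that reason. Capitals mark TCAAGG, the core that LRH-1 and its relatives of the NR5A family bind, at -68 to -63 and at -35 to -30. The core was searched after the longer site CAAGGTCA, which contains the half-site AGGTCA and overlaps the core, gave no match.
Nr0b2: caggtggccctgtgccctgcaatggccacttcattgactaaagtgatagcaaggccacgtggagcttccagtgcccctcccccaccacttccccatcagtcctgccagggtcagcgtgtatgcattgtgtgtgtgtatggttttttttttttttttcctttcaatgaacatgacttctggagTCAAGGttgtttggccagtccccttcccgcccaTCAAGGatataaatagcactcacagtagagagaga
On either strand the core was found in 12.5% of 32851 promoters and at least 2 cores in 303 of them (0.922%), so the pair of cores in Nr0b2 is less common than 1 core, and no binding was measured here.

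Nr0b2 stood at 66.6, 55.1, 76.6 and 34.5 CPM in Colo201 2L, 2R, 4L and 4R. The HCT116 libraries 1L, 1R, 3L and 3R had 39.5, 57.6, 49.7 and 87.1 CPM. The lowest value was in Colo201 4R and the highest in HCT116 3R, and the lines overlapped over most of their ranges. The means were nearly equal, 58.2 ± 18.1 and 58.5 ± 20.5 CPM (SD, n = 4 each), and the log2 fold change was 0.01 (SE 0.29, adjusted p = 0.984 by edgeR). This SE was the widest of the 6, the others being 0.07 to 0.09. The sign of the Nr0b2 difference changed in 10 of 21 alternative settings, over a range from -0.17 without Colo201 4L to 0.26 without Colo201 4R.

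The spread of Nr0b2 was within the lines and within the numbers. Its within-line SD was 0.49 on the log2 scale, and 83.3% of the 12735 genes had a smaller one. Of the 2 libraries that share a number, the higher was 1.21 times the lower for number 2, 1.46 for number 1, 1.75 for number 3 and 2.22 for number 4. For the other 5 regulators this ratio was at most 1.27. Colo201 4R, the library with the lowest Nr0b2, also had the lowest summed Kupffer cell and macrophage markers (213 CPM, against 351 to 599 CPM in the other 7), the lowest endothelial markers (179 CPM) and the highest cholangiocyte markers (98.5 CPM, with Krt19 at 25.9 CPM); their part in the Nr0b2 value was not tested. In the libraries labelled male the log2 fold change of Nr0b2 was 0.33 (SE 0.40) and in those labelled female -0.30 (SE 0.40), and the difference between them, -0.63 (SE 0.57), did not pass.

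**Figure D2:**
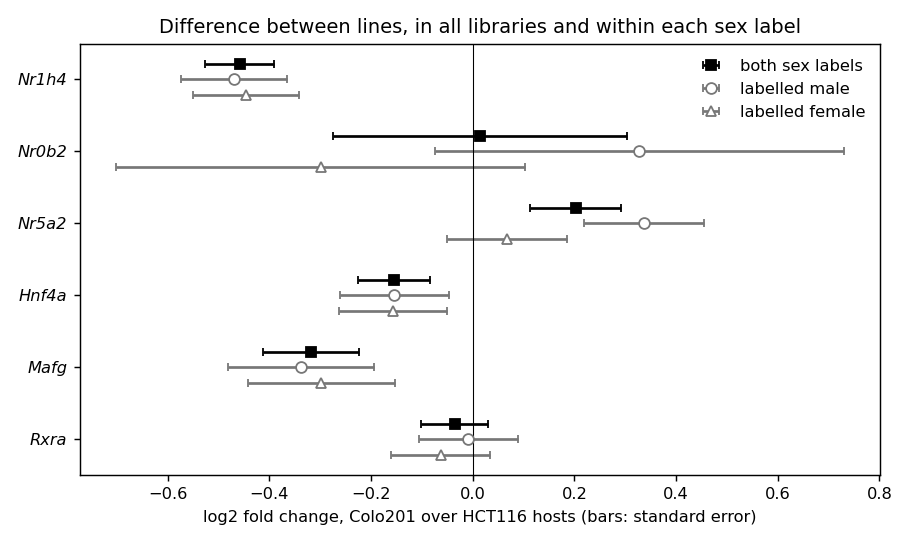
Log2 fold change of Colo201 over HCT116 hosts (x axis) for each regulator, over all libraries (black squares) and within the libraries labelled male (circles) or female (triangles); bars are 1 standard error on either side. The 3 estimates for Nr1h4 lie between -0.47 and -0.45, and those for Nr0b2 run from -0.30 to 0.33 with the widest bars.

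LRH-1 is the receptor that drives Cyp7a1, Cyp8b1 and Nr0b2 and that SHP represses. Its gene Nr5a2 (ENSMUSG00000026398, chromosome 1, 136842571 to 136960448, minus strand) stood at 64.0, 62.5, 49.4 and 51.8 CPM in Colo201 2L, 2R, 4L and 4R. It stood in HCT116 1L, 1R, 3L and 3R at 47.3, 52.8, 47.1 and 49.6 CPM. The 2 Colo201 libraries labelled male were above all other libraries, and the 2 labelled female lay within the range of HCT116. The means were 56.9 ± 7.36 and 49.2 ± 2.67 CPM (SD, n = 4 each), and Nr5a2 did not pass, with a log2 ratio of 0.20 (SE 0.09, adjusted p = 0.231 by edgeR). Within the male label the log2 fold change was 0.34 (SE 0.12, adjusted p = 0.299 by edgeR) and within the female label 0.07 (SE 0.12, adjusted p = 0.845 by edgeR). The difference between these, -0.27 (SE 0.17), did not pass.

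HNF4A is the orphan receptor that keeps hepatocyte genes on. Its gene Hnf4a (ENSMUSG00000017950, chromosome 2, 163506808 to 163572910, plus strand) stood at 636.6, 563.0, 631.5 and 645.7 CPM in Colo201 2L, 2R, 4L and 4R. For HCT116 1L, 1R, 3L and 3R the values were 653.5, 681.4, 730.0 and 694.1 CPM. The lines did not overlap, but the highest Colo201 and the lowest HCT116 library were only 645.7 and 653.5 CPM. The means were 619.2 ± 37.9 and 689.7 ± 31.8 CPM (SD, n = 4 each), and Hnf4a did not pass, with a log2 ratio of -0.16 (SE 0.07, adjusted p = 0.244 by edgeR). The antisense gene Hnf4aos overlaps it over 34913 bases at 1.27 to 4.92 CPM unscaled, and the strand setting of the counting is not given in the sources used here.

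MAFG is the small MAF protein that FXR induces and that represses bile acid genes. Its gene Mafg (ENSMUSG00000051510, chromosome 11, 120625117 to 120633600, minus strand) stood at 61.5, 78.2, 68.9 and 71.9 CPM in Colo201 2L, 2R, 4L and 4R. In the HCT116 libraries 1L, 1R, 3L and 3R it had 84.9, 91.6, 90.4 and 82.7 CPM. All Colo201 libraries were below all HCT116 libraries. The means were 70.1 ± 6.91 and 87.4 ± 4.26 CPM (SD, n = 4 each), and Mafg did not pass with edgeR, with a log2 ratio of -0.32 (SE 0.09, adjusted p = 0.0972). It passed in 1 of 21 alternative settings, DESeq2 (adjusted p = 0.0268). Mafg shares 124 bases with Sirt7 on the same strand (22.4 to 34.9 CPM unscaled), so some reads could have been assigned to either gene.

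The 9 RefSeq promoters of the 6 regulators, 250 bases each, differed in base composition. The Mafg promoter was 68.0% G or C with 32 CpG pairs and the upstream Rxra promoter 81.2% with 40, while the median of all 32851 promoters was 52.4% with 6. The Nr1h4 promoter was 44.4% G or C with 5 CpG pairs and the Nr0b2 promoter 50% with 3. The half-site AGGTCA was also present once in 1 of 2 Nr5a2 promoters and on both strands of 1 of 2 Rxra promoters. The NR5A site CAAGGTCA (1.33% of all promoters), the HNF4A site CAAAGTCCA (0.384%), the small MAF half-site TGCTGA (16.1%) and an inverted repeat of the half-site with 1 base between the arms, the classical FXR element (0.00609%), were each searched on both strands, and these letters were not in any of the 9 windows.

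Per transcript length, in the authors' FPKM, fragments scaled by transcript length and library size, over all 8 libraries, Hnf4a had the highest level of the 6 at 124 ± 10.9 FPKM (SD, n = 8) and exceeded 97.9% of the tested genes. Rxra followed at 74.3 ± 3.13 FPKM, then Nr1h4 at 49.3 ± 9.24, Nr0b2 at 46.8 ± 13.5, Mafg at 12.8 ± 2.06 and Nr5a2 at 8.20 ± 0.96 FPKM. Nr5a2, the lowest, still exceeded 80.0% of the tested genes. The order of neighbours held in 8 of 8 libraries except for Nr1h4 over Nr0b2, which held in 4 of 8. These were Colo201 4R and HCT116 1L, 1R and 3L, so no order of these 2 held over both lines. By line, Nr1h4 had means of 40.9 ± 2.74 FPKM in Colo201 and 57.7 ± 2.14 in HCT116 hosts (SD, n = 4 each). Those of Nr0b2 were 46.2 ± 13.8 and 47.5 ± 15.3 FPKM. The ranges of Mafg (9.49 to 15.3 FPKM) and Nr5a2 (7.43 to 9.92 FPKM) overlapped slightly across libraries although Mafg was higher in each.

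**Figure D3:**
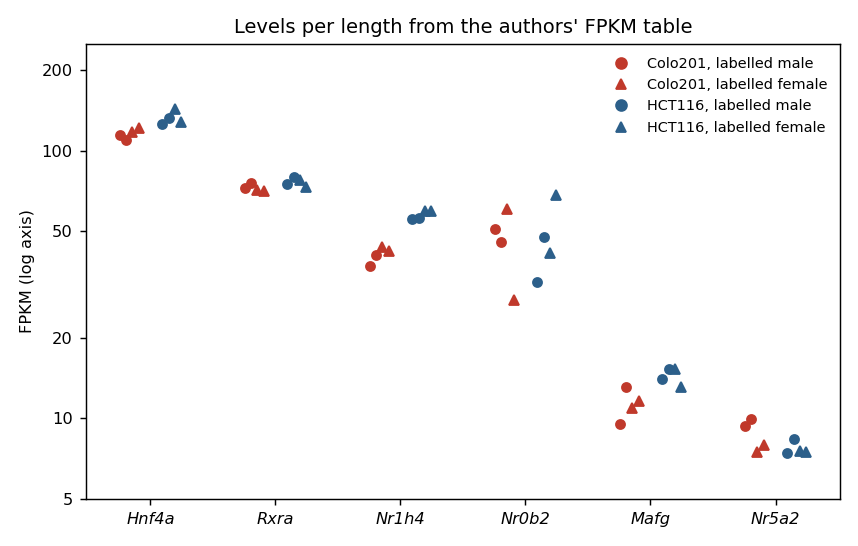
FPKM from the authors' table (y axis, log scale) of the 6 regulators (x axis, in order of mean level) in each library, with Colo201 hosts on the left and HCT116 hosts on the right of each gene and sex labels as circles (male) and triangles (female). Hnf4a and Rxra lie above the others in all 8 libraries, and Nr1h4 and Nr0b2 overlap.

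Within a sex label none of the 6 regulators was called by edgeR. Each combination of line and sex label is also a single number, so within a line the sex label and the number cannot be told apart. Between libraries labelled male 0 of 6 were called, beside 0.232% of all genes, with 1 higher (Nr5a2) and 2 lower (Nr1h4 and Mafg) at an unadjusted p under 0.05. Of all 17669 tested genes 2311 had such a p there. Between libraries labelled female 0 of 6 were called, beside 0.492%, with 1 lower (Nr1h4) at an unadjusted p under 0.05, where 2494 of all tested genes were. DESeq2 called Nr1h4 within each label, among 589 genes in all for male and 747 for female, and limma voom called 0 regulators in each. For the interaction of line and sex label 0 of 6 were called, beside 0.0283%, with 0 at an unadjusted p under 0.05 and 0 by DESeq2 or limma voom. Between the sex labels, with line as a covariate, 0 of 6 were called, beside 4.02%, again with 0 at an unadjusted p under 0.05 and 0 by either other tool. The largest of these log2 differences, female over male, were -0.19 for Nr5a2 (SE 0.09, means 49.5 and 56.6 CPM), 0.18 for Nr0b2 (SE 0.29, means 62.0 and 54.7 CPM) and 0.13 for Nr1h4 (SE 0.07, means 130 and 119 CPM).

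Most of the genes that FXR is known to induce or bind did not pass between the lines. Of 28 tested, 20 had a negative and 8 a positive log2 fold change, whether or not they passed. The regulators Nr0b2 and Mafg are among the 28. With edgeR 1 of the 28 rose and 4 fell in the hosts of Colo201 and 23 did not pass. The median log2 fold change was -0.26, beside 0.0021 over all tested genes. The share called was 17.9%, beside 4.78% of all tested genes. For the counts of this and the later lists, 3834 of all 17669 tested genes had an unadjusted p under 0.05, and DESeq2 called 1993. This and the later lists were chosen with earlier results of these data known, so their shares called are a description only. Baat, which joins bile acids to taurine, fell by 0.55 (SE 0.07, adjusted p = 0.00665 by edgeR), and Slc27a5, which activates bile acids with coenzyme A before that step, fell by 0.40 (adjusted p = 0.033). Abcc2, a canalicular exporter of conjugates, fell by 0.42 (adjusted p = 0.0374) and Fetub, a secreted liver protein, by 0.50 (adjusted p = 0.0301). The syndecan gene Sdc1 rose by 0.36 (adjusted p = 0.0383). With 1 library left out, 0 to 1 of the 28 rose and 1 to 2 fell: Baat passed in all 8 cases, Fetub and Slc27a5 in none, and Abcc2 and Sdc1 only without HCT116 3R. All 5 calls ended without the covariate and with the libraries of a number summed, while DESeq2 called 3 higher and 9 lower and limma voom 1 higher and 5 lower.

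Several of the best known FXR targets did not pass. The bile salt export pump gene Abcb11 had 414 ± 29.4 CPM in Colo201 and 398 ± 36.9 CPM in HCT116 hosts (SD, n = 4 each), a log2 ratio of 0.06 (SE 0.09, adjusted p = 0.729 by edgeR). The basolateral bile acid exporter genes Slc51a and Slc51b were near the detection limit, at 0.208 to 1.35 and 0 to 0.485 CPM over the 8 libraries. The FGF receptor gene Fgfr4 stood at a log2 ratio of -0.08 (SE 0.07, adjusted p = 0.593) and the co-receptor gene Klb at 0.29 (SE 0.13, adjusted p = 0.233). Fgf15 had 0 counts in all 8 liver libraries.

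Of 9 tested bile acid genes that SHP, LRH-1 or MAFG are known to control, 0 rose and 3 fell, with a median of -0.18. The share called was 33.3%, beside 4.78% of all tested genes. At an unadjusted p under 0.05 edgeR found 0 higher and 4 lower, and DESeq2 and limma voom each called 0 higher and 4 lower. Cyp7a1, the rate-limiting hydroxylase of bile acid synthesis, stood at 0.457, 3.61, 0.297 and 0.616 CPM in 2L, 2R, 4L and 4R of Colo201, beside 181 to 223 CPM in the 4 HCT116 libraries. It fell by 7.59 (SE 0.76, adjusted p = 0.00381 by edgeR). Cyp8b1, the 12-alpha-hydroxylase of cholic acid synthesis, fell by 2.33 (SE 0.25), from a range of 71.1 to 252 CPM to one of 19.3 to 58.6 CPM, and Cyp27a1, the 27-hydroxylase, by 1.14 (SE 0.14). These 3 calls held whichever library was left out, and 1 of them held without the covariate (Cyp7a1) and 1 with the libraries of a number summed (Cyp8b1). Beside the fall of Cyp7a1, Nr1h4 was 27.2% lower, and Hnf4a and Mafg were lower without overlap but did not pass with edgeR. The lines overlapped for Nr0b2, Nr5a2 and Rxra. Whether any regulator had a part in the fall was not tested.

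Targets of LRH-1 and HNF4A did not share a direction. Of 11 tested LRH-1 target genes 2 rose (Apoa1 and Apom, both apolipoproteins of HDL) and 2 fell (Cyp7a1 and Cyp8b1), with a median of 0.05. Cel was not tested. The share called was 36.4%, beside 4.78% of all tested genes. Apom rose by a log2 ratio of 0.83 (SE 0.10, adjusted p = 0.00717 by edgeR), and Apoa1 by 0.47 (SE 0.07, adjusted p = 0.0167). Leaving out HCT116 1R, HCT116 3L or Colo201 4L ended the Apoa1 call. With the libraries of a number summed 0 of the 11 rose and 1 fell, without the covariate 2 rose and 1 fell, and DESeq2 called 4 higher and 2 lower. Of 31 tested HNF4A target genes 5 rose and 5 fell (32.3% called), with a median of 0.05. Cyp7a1 and Cyp8b1 are called in both of these lists and among the bile acid genes above, so the shares called in these lists are not independent.

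The HNF4A targets that rose were Apoa4, Apoc3 and Apom (apolipoproteins), F7 (a coagulation factor) and Trf (transferrin), with log2 fold changes of 1.79, 0.84, 0.83, 0.39 and 0.51. Those that fell were Cyp7a1, Cyp8b1, the xenobiotic receptor genes Nr1i3 (CAR, -1.28) and Nr1i2 (PXR, -0.52), and Pck1 (an enzyme of gluconeogenesis, -0.50). With 1 library left out, 3 to 5 rose and 4 to 5 fell; F7 passed in none of these 8 cases, Trf only without Colo201 2R or 4R, and Pck1 only without HCT116 3L. Without the covariate 2 rose and 1 fell, and with the libraries of a number summed 0 rose and 1 fell; DESeq2 called 7 higher and 6 lower, and limma voom 5 and 5. Trf, F7 and Pck1 were named after their values were seen.

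Among RXR and its nuclear receptor partners, 0 of 17 tested genes rose and 3 fell, with a median of 0.01. The share called was 17.6%, beside 4.78% of all tested genes. Nr1i3 and Nr1i2 are named above, and Pparg, a receptor of lipid storage, fell by 1.70 (SE 0.19, adjusted p = 0.0056 by edgeR), from 10.9 ± 1.90 to 3.67 ± 1.83 CPM (SD, n = 4 each). At an unadjusted p under 0.05 edgeR found 3 higher and 5 lower, DESeq2 called 3 higher and 5 lower, and limma voom called 1 higher and 3 lower. The other RXR genes did not pass: Rxrb had a log2 ratio of -0.03 (adjusted p = 0.944) and Rxrg of 0.48 (adjusted p = 0.321), over ranges of 22.8 to 37.4 and 3.68 to 9.11 CPM. Nr1h5, which encodes FXR-beta, had 1.58 ± 0.47 and 2.98 ± 0.76 CPM (SD, n = 4 each) and did not pass with edgeR (-0.90, adjusted p = 0.129) or limma voom, while DESeq2 called it lower. All 3 falls held whichever library was left out, and 0 held without the covariate or with the libraries of a number summed.

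Among the small MAF proteins and the CNC factors they pair with, 0 of 9 rose and 1 fell, with a median of 0.21. The share called was 11.1%, beside 4.78% of all tested genes. Bach1, a repressor that binds with small MAFs, fell by 0.39 (SE 0.09, adjusted p = 0.0493 by edgeR), and this call ended whichever library was left out, without the covariate and with the libraries of a number summed. At an unadjusted p under 0.05 edgeR found 4 higher and 2 lower, DESeq2 called 4 and 2, and limma voom called 1 and 1. Mafk, another small MAF gene, stood at 23.7, 25.6, 32.3 and 28.9 CPM in Colo201 2L, 2R, 4L and 4R. HCT116 hosts had, in 1L, 1R, 3L and 3R, 22.5, 17.8, 18.1 and 18.0 CPM. The lines did not overlap on this scale but did in CPM without TMM scaling. Mafk was higher on average in Colo201, opposite in sign to Mafg; it did not pass with edgeR (0.53, SE 0.13, adjusted p = 0.0553) but was called higher by DESeq2 and limma voom, and by edgeR without HCT116 1L or with the filter of at least 1 CPM in 4 libraries. Nfe2l2, which encodes NRF2, did not pass with edgeR (0.32, adjusted p = 0.0814) or limma voom but was called higher by DESeq2, and Maff did not pass with any of the 3 (0.21, edgeR adjusted p = 0.613).

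Of 17 tested genes of the hepatocyte transcription factor network 0 rose and 1 fell, with a median of 0.07. The share called, 5.88%, was close to the 4.78% of all tested genes. Hnf4g, Nr0b1 and Nr5a1 were not tested. Prox1, a corepressor of HNF4A and LRH-1, fell by 0.53 (SE 0.12, adjusted p = 0.0437 by edgeR) and passed, of the 8 fits with 1 library left out, only in that without Colo201 2R; it ended without the covariate and with the libraries of a number summed. Foxa2 (0.35, adjusted p = 0.248) and Cebpa (0.19, adjusted p = 0.324) did not pass. At an unadjusted p under 0.05 edgeR found 3 higher and 3 lower in this list, DESeq2 called 1 higher and 2 lower, and limma voom 0 higher and 1 lower.

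The share called among 28 tested coregulators of FXR, SHP, LRH-1 and HNF4A was 7.14%, close to the 4.78% of all tested genes. Of the 28, 0 rose and 2 fell, with a median of -0.15. These were Prox1 and Sirt1, a deacetylase of FXR, which fell by 0.48 (SE 0.10, adjusted p = 0.0312 by edgeR) from 13.8 ± 1.45 to 9.89 ± 0.84 CPM (SD, n = 4 each); the Sirt1 call ended whichever library was left out, without the covariate and with the libraries of a number summed. The corepressor gene Ncor1 had a log2 ratio of -0.0049 (SE 0.08) and the coactivator gene Ppargc1a of -0.29 (SE 0.25, adjusted p = 0.546). At an unadjusted p under 0.05 edgeR found 2 higher and 7 lower, DESeq2 called 1 higher and 3 lower, and limma voom 0 higher and 2 lower.

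**Figure D4:**
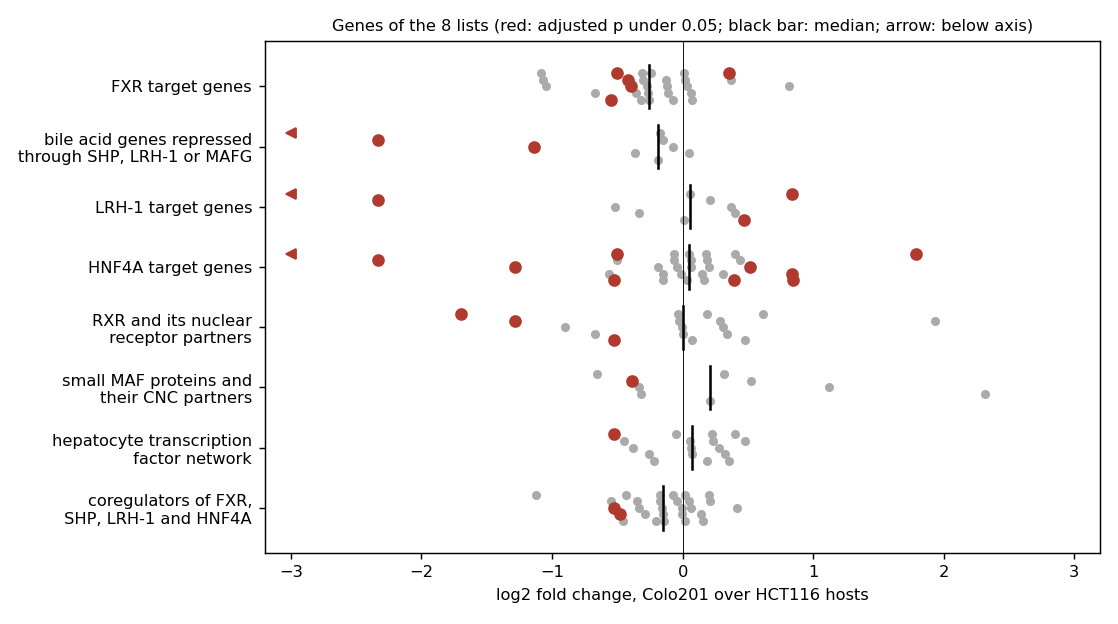
Log2 fold change of Colo201 over HCT116 hosts (x axis) of each tested gene of the 8 lists (rows); large red points passed at an adjusted p under 0.05, small grey points did not, the black bar is the median of the list, and the arrows mark Cyp7a1, at -7.59, beyond the axis. The medians lie between -0.26 and 0.21, and the passing HNF4A targets lie on both sides of 0.

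Markers of the liver cell types were compared between the lines in the same way. For Kupffer cells and macrophages 0 of 10 tested markers passed (0 at an unadjusted p under 0.05 and 0 by DESeq2 or limma voom), with summed levels of 213 to 599 CPM in Colo201 and 351 to 529 CPM in HCT116. For endothelial cells 0 of 8 passed with edgeR (1 lower at an unadjusted p under 0.05, 0 by the other tools), at 179 to 323 and 217 to 340 CPM. Of 8 stellate cell markers Reln rose, and of 8 cholangiocyte markers Krt23 rose, with cholangiocyte sums of 50.2 to 98.5 CPM in Colo201 and 43.8 to 52.5 CPM in HCT116 hosts. In each of these lists edgeR found 2 higher and 1 lower at an unadjusted p under 0.05; among stellate markers DESeq2 called 2 higher and 1 lower (Dcn, Des and Reln) and limma voom Reln, and among cholangiocyte markers both called Krt23. Of 8 hepatocyte markers Apoa1 rose with all 3 tools, with 2 higher at an unadjusted p under 0.05. With edgeR 0 of 4 tested neutrophil markers passed (0 at an unadjusted p under 0.05, 0 by the other tools) and 0 of 4 erythroid markers (2 higher at an unadjusted p under 0.05, 1 by DESeq2, Hba-a1, and 0 by limma voom). Only 1 of 7 exocrine pancreas markers was abundant enough to test and it did not pass with any tool (unadjusted p under 0.05 with edgeR); Cpa1, Cel and Pnlip were at 0 in all libraries. The Nr1h4 difference was -0.45 without Colo201 4R, the library highest in cholangiocyte markers, and passed there (adjusted p = 0.0325 by edgeR). Colo201 2L, 2R and 4L, which stayed in that fit, had cholangiocyte sums of 50.2, 65.4 and 83.0 CPM. The part of these cells in the Nr1h4 difference was not tested.

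Pairs of regulators were compared over the 8 libraries as a description, since these libraries share their source and scaling and each line makes up a block of 4. Nr1h4 correlated with Hnf4a at r = 0.81 and with Mafg at r = 0.80 on log2 CPM. After each line's mean was taken off, these values were 0.47 and -0.09. For Nr1h4 and Nr5a2 the values were -0.77 and, within lines, -0.72; in Colo201 hosts Nr1h4 was higher and Nr5a2 lower in the libraries labelled female. Nr1h4 and its target Nr0b2 had an r of 0.11, and 0.36 within lines. Nr5a2 and Rxra had 0.25, and 0.80 within lines.

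Among 12724 genes with at least 1 CPM on average, the 5 with the pattern most like that of each regulator were listed by Pearson's r of log2 CPM over the 8 libraries, with the value within lines beside it. For Nr1h4 they were Ces1e (0.994, within lines 0.932), Riok2, Eif2a, C730036E19Rik and Pdxk, down to r = 0.973; Ces1e, a carboxylesterase gene, had means of 77.7 CPM in Colo201 and 211 CPM in HCT116. For Nr0b2 they were Aven (0.952, within lines 0.990), Kti12, Ubtd1, U2af1l4 and Gm15772, whose line means were each close to one another, as those of Nr0b2 were. For Nr5a2 they included Mettl3 (0.967), Mon1a, Micall2 and Zfp672. For Hnf4a they were Npat (0.984), Kpna3, Atrn, Dhx9 and Tmem135. For Mafg they were Ankrd16 (0.995), 1600020E01Rik, Zfp512b, Gm35315 and Fnbp4, and for Rxra Ms4a6c (0.966), Uspl1, Tpcn1, Glb1l and Klhl6. No regulator was among the 5 of another. All these genes were picked out of 12724 for their high r, so the high values and the like line means follow from that choice.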

How the data were processed

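Polyadenylated liver RNA of 8 libraries was measured by a stranded mRNA protocol, per the labels' protocols. The authors deposited a table of estimated counts per gene, as whole numbers, and a table of FPKM. HISAT2, StringTie and GRCm38 (mm10) are named in the submitters' processing notes; the sources used here give neither their versions nor the annotation or how strand entered the counting. Among count values of 1 to 16, 43.9 to 45.0% were multiples of 4, and the ratio of count to FPKM was nearly constant from library to library (log2 SD 0.0026 over 8665 genes), so the FPKM values are not independent of the counts. The counts were taken as deposited, with no rounding needed. Of 55401 identifiers 55141 matched a symbol in GENCODE vM21.

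Counts were scaled by TMM (factors 0.946 to 1.04) and filtered by filterByExpr over the 4 combinations of line and sex label, and 17669 genes were fitted with the quasi-likelihood test of edgeR 4.0.16 (R 4.3.3; two-sided, Benjamini-Hochberg over all tested genes). The differences between lines and between sex labels came from an additive fit with 5 residual degrees of freedom, and those within a sex label and the interaction from a fit with 4 means and 4 residual degrees of freedom. Standard errors were computed as the absolute log2 fold change over the square root of F. CPM are means ± SD over libraries. DESeq2 1.42.0, limma 3.58.1 (voom, and log2(FPKM + 1) or log2(FPKM + 0.1)), other scalings and filters, and each library left out were the alternatives. Correlations used log2 CPM with a prior count of 2. The fits were tested on simulated data.

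The regulators, the gene lists, the markers and the rule for named genes were chosen with earlier results of these data known. The rule names the 6 regulators, up to 5 passing genes of each list by p-value, 18 further genes whatever their result, the 5 genes most like each regulator, and Xist and Ddx3y; some genes that the rule names are not reported here. No pairs of libraries were identical, and all columns were used. Promoter sequences are from RefSeq, and all 6 regulators matched.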

Additional observations from a re-analysis of the deposited data

Results flagged for a closer look

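In 84 groups of 4 libraries (named genes of the lists and the regulators, in each line), a library was singled out where its gap to the nearest other took up more of the group's range than Dixon's critical value for 4 values allows; chance gives this in about 1 in 20 groups. None of the 6 regulators had such a library. The groups named below are all that were found, about as many as chance gives. Colo201 2R stood apart for Cyp7a1 and Ppargc1a: Cyp7a1 was at 3.61 CPM there and at 0.297 to 0.616 CPM in the other Colo201 libraries, and Ppargc1a was at 11.1 against 4.91 to 5.36 CPM. Hnf4a was also lowest in that library, at 563.0 CPM. HCT116 1L was high for Mafk, at 22.5 against 17.8 to 18.1 CPM in the other HCT116 libraries. HCT116 3R was high for Nfe2l2, at 76.7 against 69.1 to 70.2 CPM.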

How the results depend on the processing

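The fall of Nr1h4 kept its direction in all 21 alternatives and its call in 18; it ended without HCT116 1R, without the covariate and with L and R of a number summed. Of the 6 regulators DESeq2 called 2 between the lines, the fits without the covariate and with summed numbers called 0, and leaving out 1 library gave 0 to 1. Between the lines 845 genes passed in all, 1993 with DESeq2, 155 without the covariate, 3 with summed numbers, and 182 (without HCT116 3L) to 549 (without Colo201 4R) with 1 library left out. Within the male label 41 genes passed, 589 with DESeq2 (1 regulator, Nr1h4), 26 and 24 with log2(FPKM + 1) and log2(FPKM + 0.1), and 0 to 49 with 1 library left out, the fewest without HCT116 1R. Within the female label 87 passed, 747 with DESeq2 (1 regulator, Nr1h4), 142 with limma voom, and 18 to 79 with 1 library left out. For the interaction 5 passed, 53 with DESeq2, 2 with either FPKM fit, and 0 to 13 with 1 library left out. Between the sex labels 710 passed, 1585 with DESeq2, and 314 to 639 with 1 library left out. The cause of these shifts was not tested, except that a fit without a library has fewer samples. With summed numbers each line and sex label is a single sample. That leaves so little to estimate the spread from that a call lost there says little about the gene. If L and R of a number came from 1 animal, though, the calls of the other fits rest on repeats of the same animals.

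Signs turned in the following results, none of which passed. The log2 difference of Nr0b2 between the lines (0.01) was -0.0149 with no scaling, -0.0056 with limma voom, -0.00066 with at least 1 CPM in 4 libraries, -0.04 in both FPKM fits (-0.0416 and -0.0428) and -0.0055 without the covariate, and -0.17 to 0.26 with 1 library left out. That of Ncor1 was 0.0018 with upper quartile scaling and -0.0480 to 0.0422 with 1 library left out. With 1 library left out, Abcb11 ranged from -0.0011 to 0.11 and Rxrb from -0.15 to 0.10 between the lines, Rxra from -0.0438 to 0.0265 within the male label, and Nr0b2 from -0.997 to 0.164 within the female label. The interaction of Hnf4a (-0.0030) was 0.02 with upper quartile scaling (0.0173), no scaling (0.0201) and the FPKM fits (0.0236 and 0.0239), and 5.3e-05 with limma voom. With 1 library left out the interaction ranged from -0.0888 to 0.0830 for Hnf4a, from -0.0222 to 0.0669 for Nr1h4 and from -0.13 to 0.22 for Mafg, and the difference between sex labels from -0.0633 to 0.43 for Nr0b2 and from -0.0827 to 0.0599 for Mafg. No paired analysis was possible because the lines share no replicate numbers.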
